A study of Homo sapiens with 4 samples.

Results

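The J-domain co-chaperone family comprised the 45 protein-coding genes whose symbol begins with DNAJA, DNAJB or DNAJC and a number, out of 58735 genes listed in each count table and 19951 protein-coding ones. They fell into 4 class A, 12 class B and 29 class C members, on 19 chromosomes. They were followed in HCT116, an established human colon cancer cell line, in 2 libraries labelled Control_sh and 2 labelled RBM25_sh, in which a short hairpin RNA (sh) was aimed at RBM25, a splicing regulator. All 4 libraries came from total RNA of HCT116 cells grown in medium with serum under standard conditions, and the groups differ in the labels only by the hairpin. The labels give neither the hairpin sequences nor whether the cells were a clone, a pool or freshly transduced, and nothing in them tells whether the replicates were separate cultures. The p-values thus reflect the spread between these libraries alone, and that spread may be technical.

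J-domain proteins are the partners that start the work cycle of the HSP70 chaperones: they bring an unfolded client protein to HSP70 and, through the J domain, make it hydrolyse ATP and clamp the client, after which a nucleotide exchange factor reopens HSP70. Class A members carry a J domain, a glycine/phenylalanine-rich linker and a zinc finger-like region, class B members lack the zinc finger-like region, and class C members share only the J domain and act at particular places such as the ribosome, the spliceosome, the endoplasmic reticulum (ER), the mitochondrion or clathrin-coated vesicles. In a cancer cell line the cytosolic class A and B members are the main general helpers of HSP70, and some of them are heat shock genes.

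Promoter windows from RefSeq (GRCh38.p14; 250 bases before and 50 after the annotated start site) were matched by symbol for 41 of the 45 members, and DNAJC1, DNAJC22, DNAJC24 and DNAJC5B had no entry. The heat shock element, the binding sequence of the heat shock factors, was searched on both strands as the triplets GAA, TTC and GAA with any 2 bases between neighbouring triplets (TTC, GAA and TTC when read from the other strand). It was found in 172 of 35116 windows (0.49%), belonging to 166 of 27305 genes (0.608%). Among members it was found in DNAJA1 and DNAJB6, and the windows of both are printed here in lower case with the element in capitals, because DNAJA1 is the member with the largest positive difference between the groups and DNAJB6 differed little. The last sequence is 1 of the 3 DNAJB1 windows, none of which holds these letters. It is shown because DNAJB1 had the highest mean level per length over the control libraries, although DNAJA1 was higher in Control_sh replicate 1. The coordinates are DNAJA1 chr9:33025023-33025322 (plus strand), DNAJB6 chr7:157336754-157337053 (plus strand) and DNAJB1 chr19:14518348-14518647 (minus strand), each written 5′ to 3′ on the gene's strand.
DNAJA1: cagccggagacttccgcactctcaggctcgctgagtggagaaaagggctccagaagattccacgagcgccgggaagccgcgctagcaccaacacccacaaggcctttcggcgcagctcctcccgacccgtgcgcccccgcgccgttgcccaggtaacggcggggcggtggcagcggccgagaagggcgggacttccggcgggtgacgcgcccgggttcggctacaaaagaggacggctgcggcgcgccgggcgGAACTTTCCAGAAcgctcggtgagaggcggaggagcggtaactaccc
DNAJB6: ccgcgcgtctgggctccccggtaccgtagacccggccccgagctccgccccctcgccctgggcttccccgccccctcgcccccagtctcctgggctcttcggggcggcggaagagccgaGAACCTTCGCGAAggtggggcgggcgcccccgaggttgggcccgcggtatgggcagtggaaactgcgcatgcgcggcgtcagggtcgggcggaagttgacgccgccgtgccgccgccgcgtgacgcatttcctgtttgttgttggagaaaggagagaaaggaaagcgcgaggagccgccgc
DNAJB1: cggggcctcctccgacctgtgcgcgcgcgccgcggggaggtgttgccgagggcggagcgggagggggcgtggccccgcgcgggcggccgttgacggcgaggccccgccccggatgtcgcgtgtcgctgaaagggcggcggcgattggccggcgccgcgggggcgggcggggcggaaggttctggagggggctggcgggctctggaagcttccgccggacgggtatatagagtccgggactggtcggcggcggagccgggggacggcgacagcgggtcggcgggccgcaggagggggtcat
With the start site counted as position 1, the element begins at position 4 in DNAJA1, and in DNAJB6 it begins 131 bases before the start site, at position -131. The ER stress element, searched on both strands as CCAAT and CCACG with any 9 bases between them, was found in 27 windows (0.0769%) and in no member. No member's window thus held both. A match is only a description of these letters. Sequences that differ from them at any fixed base were not searched, so a window without a match may still hold an imperfect element.

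The libraries held between 15528274 and 16982663 counts, of which members took 0.205% and 0.192% in the 2 Control_sh and 0.257% and 0.234% in the 2 RBM25_sh libraries (replicate 1 first, then replicate 2, an order kept throughout). RBM25 itself stood at 155 and 115 CPM (counts scaled to a common library size by the trimmed mean of M-values, TMM) in Control_sh and at 43.9 and 35.6 CPM in RBM25_sh, a log2 fold change of -1.76 ± 0.30 (standard error; edgeR quasi-likelihood test, Benjamini-Hochberg adjusted p = 0.0195). That call was lost without RBM25_sh replicate 1 (-1.92, adjusted p = 0.0797 by edgeR) or replicate 2 (-1.59, adjusted p = 0.152 by edgeR). Of 6 epithelial markers, EPCAM, CDH1, KRT8, KRT18 and CDX2 were expressed in every library and VIL1 was at or near 0; together they summed to 2652 and 3060 CPM in Control_sh and 3480 and 4244 CPM in RBM25_sh, mostly KRT8. The 8 markers of other cell types summed to 44.7 and 67.7 CPM in Control_sh and 46.5 and 57.2 CPM in RBM25_sh, most of it COL1A1 (39.0 and 61.9 against 37.0 and 46.9 CPM), with MYH11, a smooth muscle marker, at 2.84 and 3.84 against 8.02 and 7.89 CPM (adjusted p = 0.0860 by edgeR); the part of these markers in the results was not tested. The leukocyte marker PTPRC was at or near 0. In both groups the 2 replicates differed with the GC content of the transcripts: across the 40 members tested, the log2 ratio of replicate 2 to replicate 1 followed GC content with a Spearman correlation of 0.77 in Control_sh and 0.62 in RBM25_sh (0.73 and 0.65 across all tested genes). These points share the same libraries, and the values are descriptions.

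**Figure D1:**
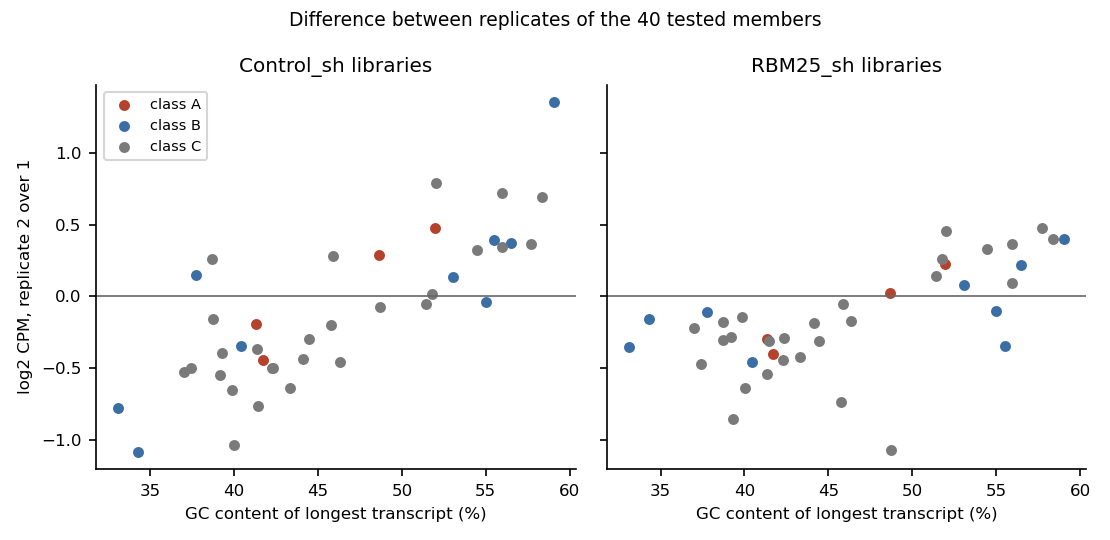
Difference between the 2 replicates of each group for the 40 tested members, as the log2 ratio of TMM-scaled CPM in replicate 2 over replicate 1 (vertical axis), against the GC content of the longest transcript in percent (horizontal axis); each point is a gene, coloured by class. Members of higher GC content tend to lie higher in both groups, with exceptions such as DNAJB6, which has 54.99% GC and lies below 0 in both, and with 16 members higher in replicate 2 of Control_sh and 13 in replicate 2 of RBM25_sh.

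Because of this, each difference is given from the edgeR fit and, where stated, from the same fit with a GC correction, an offset per gene and library fitted to the trend of that library with GC content. Member GC contents ran from 33.1% to 59.1% with a median of 44.3%. The correction also removes any part of the difference between the groups that runs with GC content. Across members the Spearman correlation of the log2 fold change with GC content was -0.34 before and -0.08 after it.

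Of the 45 members, 40 passed the filter on low counts: all 4 of class A, 9 of class B and 27 of class C. The 5 others were close to or at 0. The counts of DNAJB7 were 12 and 2 in Control_sh and 0 and 1 in RBM25_sh, and those of DNAJB8 were 0 and 0 against 5 and 0. DNAJB13 had 10 and 0 against 0 and 6, DNAJC5B had 1 and 1 against 0 and 0, and the readthrough gene DNAJC25-GNG10 had no count in any library. All of these but the readthrough gene are genes known mainly from testis. A count of 0 allows up to 3 counts, or 0.167 to 0.201 CPM in these libraries, by counting error alone. The filter needs enough counts in the libraries of 1 group, so the 40 are not all members.

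DNAJA1 rose after RBM25 knockdown and was the 1 member called at an adjusted p under 0.05; no member was called lower. In the same fit, 491 of 16091 tested genes (3.05%) were called, 105 (0.653%) higher and 386 (2.4%) lower, so 1 of 40 members (2.5%) stood against that background. At an unadjusted p under 0.05, 9 members were higher and 2 lower, beside 21.4% of all tested genes in either direction. DESeq2 called 2 members higher and 1 lower, where it called 1085 of the 16091 genes in either direction. The members called changed when 1 library was left out, and DNAJA1 lost its call without RBM25_sh replicate 1. With the GC correction edgeR called 13 members higher (32.5%) and 5 lower (12.5%), where it called 12.8% of all tested genes higher and 15.1% lower. DNAJC5G, among those 5, passed the filter only through Control_sh, where it is high. In CPM, both RBM25_sh libraries lay above both Control_sh libraries for 17 members (42.5%; 23.9% of all tested genes) and below both for 4 (10%; 27.9% of all tested genes), and the groups overlapped for 19, where 51.8% of all tested genes had groups that did not. The fitted log2 fold change was above 0 for 25 of 40 members (47.5% of all tested genes), with a median of 0.24 (0.22 without DNAJA1), beside -0.04 over all tested genes. With the GC correction the median of members was 0.14, beside -0.02 over all tested genes. These lists were chosen with results of these data known, so their counts and medians are descriptions.

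**Figure D2:**
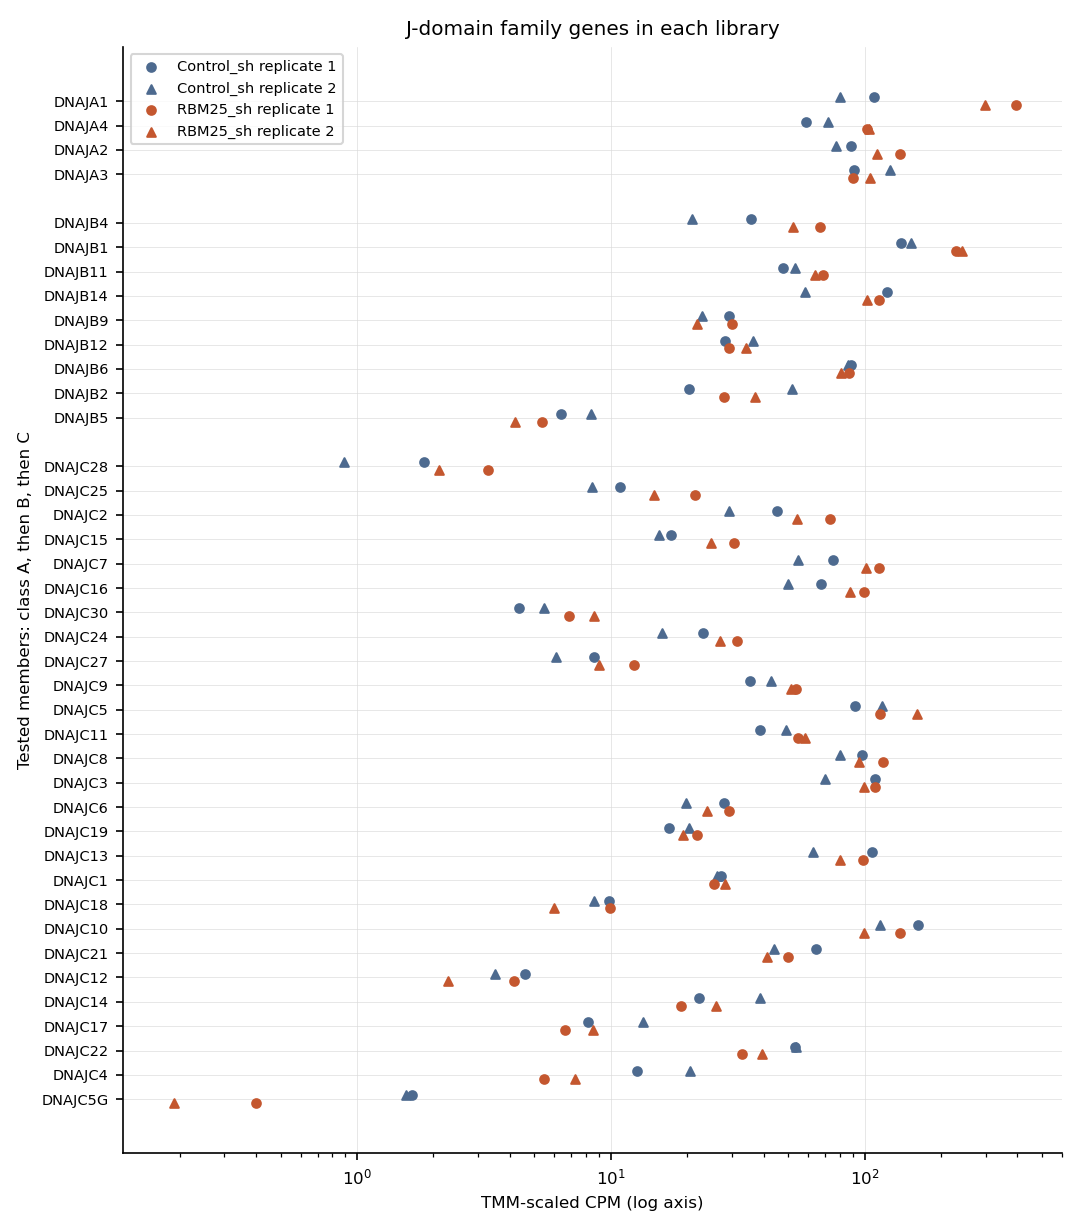
TMM-scaled CPM (log axis) of the 40 tested members in each library, grouped into class A, B and C from top to bottom and ordered by log2 fold change within a class; blue marks Control_sh, orange RBM25_sh, circles replicate 1 and triangles replicate 2. DNAJA1 reaches 394 and 298 CPM in RBM25_sh, and DNAJC5G and DNAJC4 at the bottom are lower in both RBM25_sh libraries than in both Control_sh libraries.

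Class A held the largest rise. DNAJA1, a general cytosolic partner of HSPA8 that carries a farnesyl anchor, stood at 109 and 79.7 CPM in Control_sh (94.1 ± 20.3, SD, n = 2) and at 394 and 298 CPM in RBM25_sh (346 ± 67.8, SD, n = 2). Both RBM25_sh values lay far above both Control_sh values. The edgeR fit gave a 3.67-fold higher level, a log2 fold change of 1.88 ± 0.30 (adjusted p = 0.0163), and 1.75 ± 0.15 with the GC correction (adjusted p = 7.7e-05). Over 16 alternative settings its log2 fold change stayed between 1.66 and 2.12 and its adjusted p ran from 3.9e-26 to 0.349, with 14 of the 16 under 0.05. Without RBM25_sh replicate 1 the value was 1.66 and the call was lost (adjusted p = 0.0834 by edgeR). The gene lies at chr9:33025211-33039907 on the plus strand (GRCh38), no other listed gene overlaps it, and all 6 of its listed processed pseudogenes had 0 counts in every library.

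DNAJA2, a cytosolic general co-chaperone closely related to DNAJA1, stood at 88.2 and 77.0 CPM in Control_sh and 138 and 112 CPM in RBM25_sh. DNAJA4, a cytosolic class A member, stood at 58.8 and 71.8 CPM against 102 and 104 CPM. Both were higher in both RBM25_sh libraries than in either control, with log2 fold changes of 0.60 ± 0.27 (adjusted p = 0.243 by edgeR) and 0.66 ± 0.27 (adjusted p = 0.198 by edgeR), so neither passed the test. Both were called higher once GC was corrected for, at 0.45 ± 0.14 and 0.66 ± 0.14. DNAJA3, the mitochondrial member of the class, stood at 90.6 and 126 CPM against 89.7 and 105 CPM. Its groups overlapped, and its log2 fold change of -0.16 ± 0.29 was above 0 when Control_sh replicate 2 was left out (0.10). Over the class the median log2 fold change was 0.63, and 0.56 with the GC correction, with 3 of 4 members above 0 in both.

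In class B no member passed the edgeR test. With the GC correction 2 of 9 were called higher (22.2%, beside 12.8% of all tested genes) and none lower (beside 15.1%). In both RBM25_sh libraries 3 lay above both controls (33.3%, beside 23.9% of all tested genes) and 1 below (11.1%, beside 27.9%). The median was -0.01, and 0.13 with the GC correction. DNAJB1, the heat-inducible HSP40 that works with HSPA1A and HSPA8, stood at 139 and 153 CPM in Control_sh and at 229 and 242 CPM in RBM25_sh. Its replicates lay close together and the groups were well apart, with a log2 fold change of 0.69 ± 0.26 (adjusted p = 0.173 by edgeR) and 0.80 ± 0.14 with the GC correction, at which it was called higher. DNAJB1 overlaps TECR on the opposite strand, and TECR itself had a log2 fold change of -0.32 (adjusted p = 0.534 by edgeR).

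DNAJB4, a cytosolic relative of DNAJB1, went from 35.7 and 20.8 CPM to 66.7 and 52.3 CPM. Its lowest RBM25_sh value was above its highest control value, although the 2 controls themselves lay far apart. The log2 fold change was 1.08 ± 0.33 (adjusted p = 0.109 by edgeR), and with the GC correction it was called higher at 0.83 ± 0.14. DNAJB4 has the lowest GC content of the members, 33.1%. DNAJB5, another relative of DNAJB1, was lower in both RBM25_sh libraries, at 5.35 and 4.197 CPM against 6.38 and 8.35 CPM, a log2 fold change of -0.63 ± 0.35 (adjusted p = 0.335 by edgeR). It was not called with the GC correction either (-0.45 ± 0.27). DNAJB6, which keeps aggregation-prone proteins soluble and whose promoter window holds the heat shock element shown above, stood at 88.5 and 86.1 CPM against 87.2 and 81.1 CPM, with overlapping groups. DNAJB2, known for its role in neurons, ranged from 20.3 to 51.8 CPM within the controls alone, the widest replicate ratio in that group among tested members, and has the highest GC content of the members, 59.1%.

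Taking the 9 tested members of cytosolic, heat shock-type function together (DNAJA1, DNAJA2, DNAJA4, DNAJB1, DNAJB2, DNAJB4, DNAJB5, DNAJB6 and DNAJC7), 6 lay above both controls in both RBM25_sh libraries (66.7%, beside 23.9% of all tested genes) and 1 below (11.1%, beside 27.9%). Their median log2 fold change was 0.66, and with the GC correction 6 were called higher (beside 12.8% of all tested genes) and none lower (beside 15.1%). DNAJC7, which binds both HSP70 and HSP90 through tetratricopeptide repeats, was the class C gene of this list. It stood at 74.9 and 54.6 CPM in Control_sh and at 114 and 101 CPM in RBM25_sh, a log2 fold change of 0.74 ± 0.28 (adjusted p = 0.176 by edgeR) and 0.70 ± 0.15 with the GC correction, at which it was called higher. DNAJC7 overlaps NKIRAS2 on the opposite strand over 9995 bases, and NKIRAS2 also had a log2 fold change above 0 (0.67, adjusted p = 0.215 by edgeR).

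**Figure D3:**
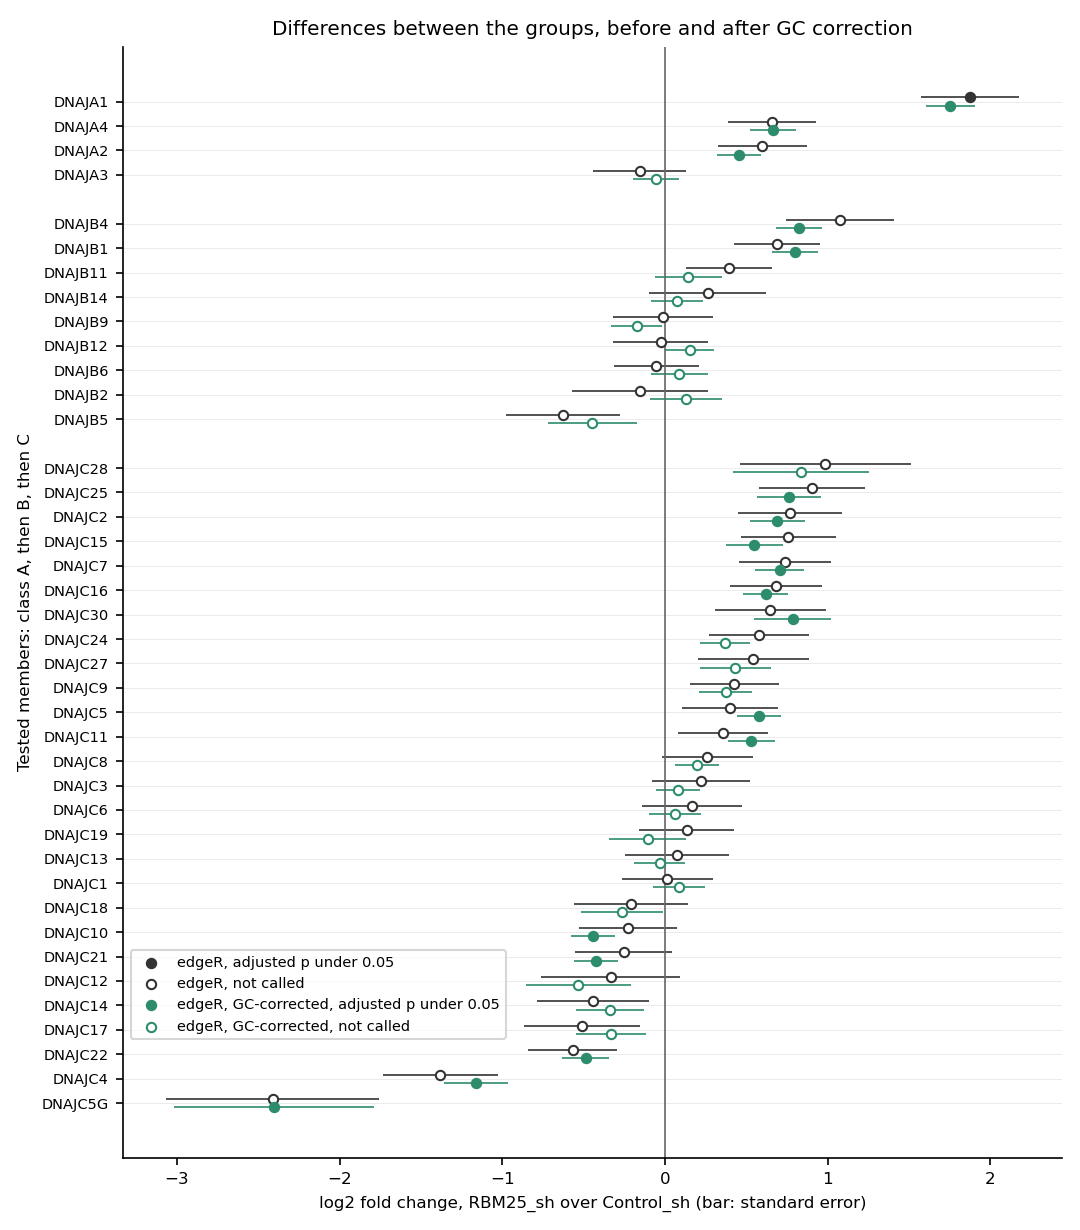
Log2 fold change of RBM25_sh over Control_sh (horizontal axis) for the 40 tested members in class A, B and C order, from edgeR (black) and edgeR with the GC correction (green), with bars of 1 standard error; filled points have an adjusted p under 0.05. DNAJA1 is filled in both at 1.88 and 1.75, and 17 other members are filled only after the correction. Over all tested genes the share called was 3.05% before the correction and 27.9% after it.

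Members of the ER showed no common direction. Of the 12 tested, 3 lay above both controls in both RBM25_sh libraries (25.0%, close to the 23.9% of all tested genes) and 1 below (8.33%, beside 27.9%). Their median log2 fold change was 0.00, and after the GC correction 2 were called higher and 2 lower (16.7% each, close to the 12.8% and 15.1% of all tested genes). DNAJB11, the ER-lumen co-chaperone of HSPA5 also called ERdj3, stood at 47.9 and 53.2 CPM in Control_sh and 68.9 and 64.0 CPM in RBM25_sh. Those groups did not overlap, but the log2 fold change was 0.39 ± 0.27 (adjusted p = 0.431 by edgeR), and 0.14 ± 0.21 with the GC correction. DNAJB9 (ERdj4), a classic target of the unfolded protein response, stood at 29.2 and 22.9 CPM against 30.0 and 21.8 CPM, nearly the same in both groups. DNAJC3 (p58IPK), which binds unfolded proteins in the ER lumen, stood at 110 and 69.6 CPM against 110 and 99.3 CPM, with overlapping groups.

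DNAJC10 (ERdj5), which reduces disulfide bonds of misfolded proteins, stood at 163 and 115 CPM in Control_sh and 138 and 99.4 CPM in RBM25_sh. Its groups overlapped, with a log2 fold change of -0.23 ± 0.30 (adjusted p = 0.714 by edgeR). With the GC correction it was called lower at -0.44 ± 0.14, but its sign turned without Control_sh replicate 1 (0.05) and without RBM25_sh replicate 2 (0.02). DNAJC22, listed here with ER and membrane members, stood at 53.3 and 53.8 CPM against 32.9 and 39.4 CPM, with no overlap. Its log2 fold change was -0.57 ± 0.27 (adjusted p = 0.268 by edgeR), and with the GC correction it was called lower at -0.49 ± 0.14.

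DNAJC25 and DNAJC16 were the 2 ER members called higher with the GC correction. DNAJC25, a membrane protein, stood at 10.9 and 8.46 CPM in Control_sh and 21.5 and 14.8 CPM in RBM25_sh, a log2 fold change of 0.90 ± 0.33 (adjusted p = 0.155 by edgeR). It shares 22966 bases with the readthrough gene DNAJC25-GNG10 on the same strand. How reads in that stretch were assigned is not given in the sources used here. DNAJC16 (ERdj8) stood at 67.3 and 49.7 CPM against 99.98 and 88.0 CPM, a log2 fold change of 0.68 ± 0.28 (adjusted p = 0.202 by edgeR). In both genes the groups were apart and the corrected values were 0.76 ± 0.20 and 0.62 ± 0.14. DNAJB14, an ER-membrane protein, showed how far a single control library could reach: it stood at 123 and 58.0 CPM in Control_sh and at 115 and 103 CPM in RBM25_sh. Its log2 fold change of 0.26 ± 0.36 became -0.18 without Control_sh replicate 2.

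Among the 7 tested mitochondrial members, 4 lay above both controls in both RBM25_sh libraries (57.1%, beside 23.9% of all tested genes) and 1 below (14.3%, beside 27.9%). The median log2 fold change was 0.36, and 3 were called higher and 1 lower with the GC correction (42.9% and 14.3%, beside 12.8% and 15.1% of all tested genes). DNAJC15, an inner-membrane partner of the protein import motor, stood at 17.3 and 15.5 CPM in Control_sh and 30.7 and 24.8 CPM in RBM25_sh. The groups were apart, with a log2 fold change of 0.76 ± 0.29 (adjusted p = 0.176 by edgeR), and with the GC correction it was called higher at 0.55 ± 0.17. DNAJC30, at 4.36 and 5.46 CPM against 6.82 and 8.59 CPM, and DNAJC11, which is associated with the cristae-organising complex, at 38.9 and 49.2 CPM against 54.6 and 58.4 CPM, were the other two called higher with the correction, at 0.79 ± 0.24 and 0.53 ± 0.15. DNAJC28 rested on few counts, 29 and 16 in Control_sh and 49 and 33 in RBM25_sh, and was not called in either fit (0.99 ± 0.53, adjusted p = 0.316 by edgeR).

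The lowest fold changes of the family were those of DNAJC5G and DNAJC4, and neither passed the edgeR test. DNAJC4, placed in the mitochondrial list, stood at 12.7 and 20.5 CPM in Control_sh and 5.48 and 7.25 CPM in RBM25_sh. Both RBM25_sh values were below both controls, a 2.60-fold lower fitted level with a log2 fold change of -1.38 ± 0.35 (adjusted p = 0.0663 by edgeR). With the GC correction it was called lower at -1.16 ± 0.20, and DESeq2 called it lower as well. DNAJC4 shares 409 bases with NUDT22 on the same strand, at chr11:64230278-64234286 for DNAJC4 (GRCh38, plus strand), and NUDT22 had counts of 310 and 560 against 87 and 201 (log2 fold change -1.45, adjusted p = 0.0916 by edgeR). How reads in the shared stretch were assigned is not given in the sources used here, so the 2 genes' values are uncertain as separate measurements.

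DNAJC5G, a relative of cysteine string protein known from testis, had 26 and 28 counts in Control_sh and 6 and 3 in RBM25_sh. The fitted level was 5.32-fold lower, with a log2 fold change of -2.41 ± 0.66 (adjusted p = 0.0795 by edgeR), and with the GC correction it was called lower at -2.40 ± 0.61. DNAJC5G passed the filter only through Control_sh, the group where it is high, so these values and the call are descriptions. It overlaps SLC30A3 on the opposite strand over 397 bases, where SLC30A3 had a log2 fold change of -0.47 (adjusted p = 0.459 by edgeR). Whether counting used strand is not given in the sources used here, so reads of the pair cannot be told apart.

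In the clathrin and vesicle group, 1 of 4 tested members lay above both controls in both RBM25_sh libraries (25.0%, close to the 23.9% of all tested genes). That was DNAJC27, a Rab-like small GTPase with a J domain, at 12.3 and 9.03 CPM in RBM25_sh against 8.59 and 6.07 CPM in Control_sh. DNAJC5, the cysteine string protein of secretory vesicles, stood at 91.6 and 118 CPM in Control_sh and 115 and 161 CPM in RBM25_sh, with overlapping groups. It was not called by edgeR (0.40 ± 0.29, adjusted p = 0.469) and was called higher with the GC correction at 0.58 ± 0.13. DNAJC6 (auxilin) and DNAJC13 (RME-8), which act in clathrin uncoating and endosomal sorting, had overlapping groups at 19.8 to 29.4 CPM and 62.9 to 107 CPM.

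DNAJC2, the ribosome-bound co-chaperone that receives nascent chains, stood at 45.4 and 29.1 CPM in Control_sh and 72.8 and 54.2 CPM in RBM25_sh. The groups did not overlap, with a log2 fold change of 0.77 ± 0.32 (adjusted p = 0.201 by edgeR), and with the GC correction it was called higher at 0.69 ± 0.17. DNAJC2 overlaps 2 coding genes on the opposite strand, PMPCB over 17038 bases and PSMC2 over 620 bases. PMPCB had counts of 1371 and 1358 in Control_sh and 1334 and 1161 in RBM25_sh. PSMC2 had a log2 fold change of 0.89 (adjusted p = 0.0982 by edgeR). The strand use of the counting is not known here. The 2 splicing-associated members, DNAJC8 and DNAJC17, act in the process that RBM25 regulates. DNAJC8 stood at 97.9 and 79.8 CPM against 118 and 95.0 CPM, and DNAJC17 at 8.14 and 13.4 CPM against 6.62 and 8.52 CPM. In both the groups overlapped and neither was called in either fit, at 0.26 ± 0.28 (adjusted p = 0.634 by edgeR) and -0.51 ± 0.36 (adjusted p = 0.445 by edgeR).

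Of the remaining class C members, DNAJC9, a histone H3-H4 chaperone, stood at 35.3 and 42.8 CPM against 53.6 and 51.5 CPM. DNAJC24, which acts in diphthamide synthesis, stood at 23.1 and 16.0 CPM against 31.4 and 27.0 CPM. Both lay above the controls in both RBM25_sh libraries and were called in neither fit. DNAJC21, a factor of large ribosomal subunit maturation, stood at 64.6 and 44.1 CPM against 50.02 and 41.1 CPM and was called lower only with the GC correction (-0.42 ± 0.13). Its uncorrected value of -0.25 ± 0.30 turned to 0.05 without Control_sh replicate 1. The fold changes of 11 other tested members, DNAJB2, DNAJB6, DNAJB9, DNAJB12, DNAJC1, DNAJC6, DNAJC12, DNAJC13, DNAJC14, DNAJC18 and DNAJC19, ran from -0.44 to 0.16 on the log2 scale, and all 11 changed sign in at least 1 alternative setting. Class C as a whole had 18 of 27 members above 0 (66.7%, beside 47.5% of all tested genes). Its median was 0.22, and 0.09 with the GC correction. With the correction 8 were called higher and 5, DNAJC5G included, lower (29.6% and 18.5%, beside 12.8% and 15.1% of all tested genes).

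Levels per gene length, from the deposited FPKM (fragments per kilobase of gene length and sequencing depth), put DNAJB1 first in Control_sh at 38.3 ± 2.48, then DNAJA1 at 33.2 ± 7.26 and DNAJC8 at 29.6 ± 4.35 (SD, n = 2 each). The levels of these neighbours lay within their spread of each other. DNAJC5 at 19.05 ± 3.31, DNAJA2 at 15.7 ± 1.54 and DNAJC3 at 15.5 ± 4.93 FPKM came next, again with overlapping spreads. In RBM25_sh the order opened with DNAJA1 at 126 ± 28.9 and DNAJB1 at 63.3 ± 0.18 FPKM, which did not overlap, followed by DNAJC8 at 36.6 ± 6.83 and DNAJC5 at 25.7 ± 5.07 FPKM. DNAJB4 stood 16th in Control_sh and 7th in RBM25_sh (7.19 ± 2.69 and 15.6 ± 3.20 FPKM), and DNAJC4 stood 23rd and 33rd (5.69 ± 1.88 and 2.23 ± 0.36 FPKM).

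**Figure D4:**
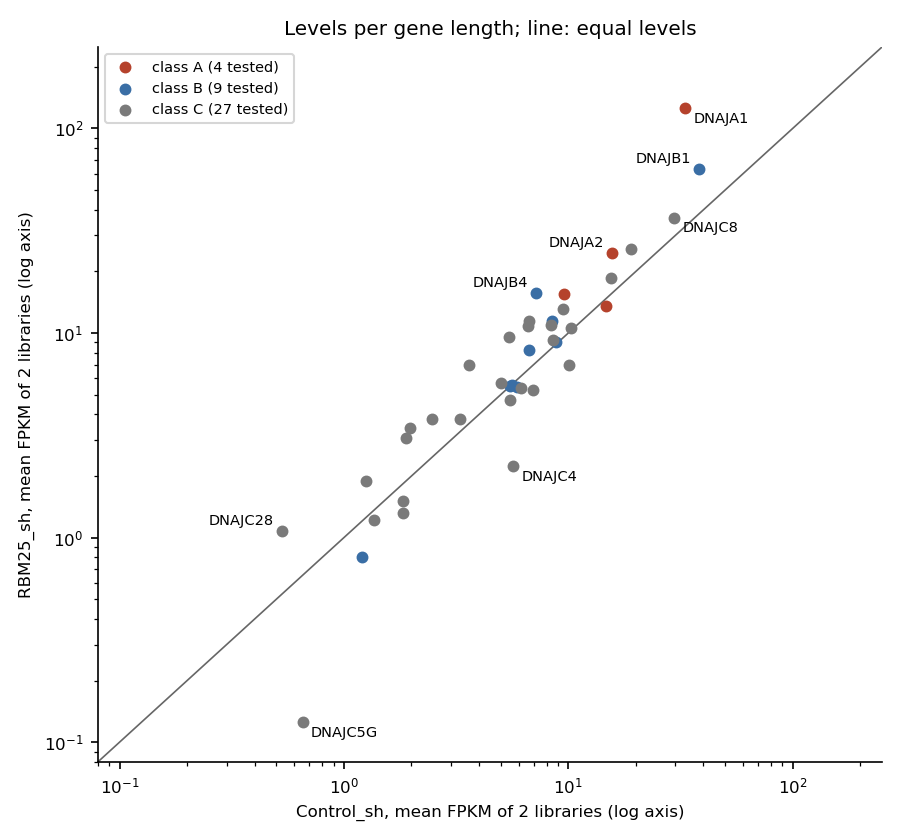
Mean deposited FPKM of each tested member in the 2 Control_sh libraries (horizontal log axis) and the 2 RBM25_sh libraries (vertical log axis), coloured by class; the line marks equal levels. DNAJA1 lies at 33.2 and 126 FPKM, and DNAJC4 and DNAJC5G lie below the line.

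Summed over the family, FPKM came to 352 and 330 in Control_sh and 559 and 479 in RBM25_sh. DNAJA1 alone made up 10.9% and 8.52% of that sum in Control_sh and 26.1% and 21.9% in RBM25_sh, and without it the sums were 314 and 301 against 413 and 374 FPKM. Class A took 21.6% and 21.3% of the family sum in Control_sh and 36.2% and 32.6% in RBM25_sh. The share of class B was 25.0% and 26.7% against 23.2% and 25.1%, with overlapping groups, and that of class C was 53.4% and 52.0% against 40.6% and 42.3%. The share of class C was thus lower in RBM25_sh although its FPKM sum was higher, at 188 and 171 in Control_sh and 227 and 203 in RBM25_sh. With 2 libraries a group, an exact permutation test of such a share cannot reach a p under 0.05, and none was run. In bulk RNA, a change in the number of cells that express a gene and a change in the RNA per cell cannot be told apart.

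The proteins that work with the family were read from lists. The HSP70 list also holds HSP110-type genes such as HSPH1 and HYOU1. Of its 14 tested genes, 3 were called higher (21.4%, beside 0.653% of all tested genes) and none lower (beside 2.4%). HSPA8, the constitutive cytosolic HSP70, stood at 547 and 367 CPM in Control_sh and 2913 and 2468 CPM in RBM25_sh, a log2 fold change of 2.56 ± 0.30 (adjusted p = 0.0064 by edgeR). HSPH1, an HSP110 exchange factor, had 1.92 ± 0.32 (adjusted p = 0.0195 by edgeR), and HSPA1B, a heat-inducible HSP70, had 1.502 ± 0.34 (adjusted p = 0.0469 by edgeR). HSPH1 lost its call without RBM25_sh replicate 1 (adjusted p = 0.0547 by edgeR), and HSPA1B lost it without either RBM25_sh replicate, with scaling by library totals, and with limma on log2 FPKM. Next by p in this list came HSPA2 at 1.64 ± 0.42 (adjusted p = 0.0670 by edgeR) and HSPA1A at 1.85 ± 0.49 (adjusted p = 0.0715 by edgeR), neither of which passed. HSPA1A and HSPA1B are near-identical copies, so the split of reads between them is uncertain. After the correction 9 HSP70 members were called higher and 3 lower (64.3% and 21.4%, beside 12.8% and 15.1% of all tested genes), and the list's median was 1.07 in the uncorrected fit. The ratio of HSPA8 to DNAJA1 in FPKM was 2.84 and 2.59 in Control_sh and 4.16 and 4.66 in RBM25_sh, a difference that was not tested. HSPA8 also holds the heat shock element in a promoter window, as do HSP90AA1, HSP90AB1, CHORDC1 and HSPA6 of these lists. Among all genes with a window the share was 0.608%. No exact match was found for HSPH1, HSPA1B or AHSA1, which were called higher. Imperfect elements were not searched, so this does not show that these genes lack one. The ER stress element was found for HSPA5 and HSP90B1 of these lists, beside 0.0916% of all genes with a window.

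In the ER, HSPA5 (BiP), the partner of DNAJB9, DNAJB11, DNAJC3 and DNAJC10, stood at 1500 and 1427 CPM in Control_sh and 982 and 836 CPM in RBM25_sh. It was not called by edgeR (-0.69 ± 0.25, adjusted p = 0.1603) and was called lower with the GC correction; it was chosen for naming after its values were seen. HYOU1, the ER exchange factor of the HSP110 type and the third uncalled HSP70-list gene by p, had a log2 fold change of -1.10 ± 0.29 (adjusted p = 0.0744 by edgeR). HSPA5 and HYOU1 lay below both controls in both RBM25_sh libraries, as 27.9% of all tested genes did. Of the 4 J-domain partners of HSPA5 named here, 3 had overlapping groups. DNAJB11 lay above both controls, as 23.9% of all tested genes did. Over all tested genes the groups did not overlap for 51.8%.

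The list of 10 nucleotide exchange factors leaves out those of the HSP110 type, which were read with the HSP70 list and include HSPH1, called higher. None of its genes was called by edgeR, with a median of 0.14. The smallest p belonged to SIL1 at -0.71 ± 0.33 (adjusted p = 0.255 by edgeR). BAG2 at 0.49 ± 0.27 (adjusted p = 0.331 by edgeR) and BAG4 at 0.48 ± 0.29 (adjusted p = 0.366 by edgeR) came next. After the correction 1 was called higher and 1 lower (10% each, beside 12.8% and 15.1% of all tested genes). None of 3 J-domain proteins outside the DNAJ names (SEC63, GAK and HSCB) was called in either fit, with values from -0.46 to 0.41 and a median of 0.02, which is that of SEC63 and falls below 0 with library totals and with the GC correction. Of 12 HSP90 proteins, adaptors and heat shock factors, 1 was called higher (8.33%, beside 0.653% of all tested genes) and none lower (beside 2.4%). It was AHSA1, the activator of the HSP90 ATPase, at 1.23 ± 0.27 (adjusted p = 0.0439 by edgeR). The median of this list was 0.46. AHSA1 lost its call without either RBM25_sh replicate, with scaling by library totals, and with limma on log2 FPKM. The cytosolic HSP90 genes came next by p, HSP90AB1 at 0.99 ± 0.26 (adjusted p = 0.0737 by edgeR) and HSP90AA1 at 1.21 ± 0.33 (adjusted p = 0.0793 by edgeR), and neither passed. The adaptor STIP1, which links HSP70 to HSP90, had 0.78 ± 0.26 (adjusted p = 0.129 by edgeR), and with the GC correction 5 of the 12 were called higher and none lower (41.7% higher, beside 12.8% of all tested genes).

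**Figure D5:**
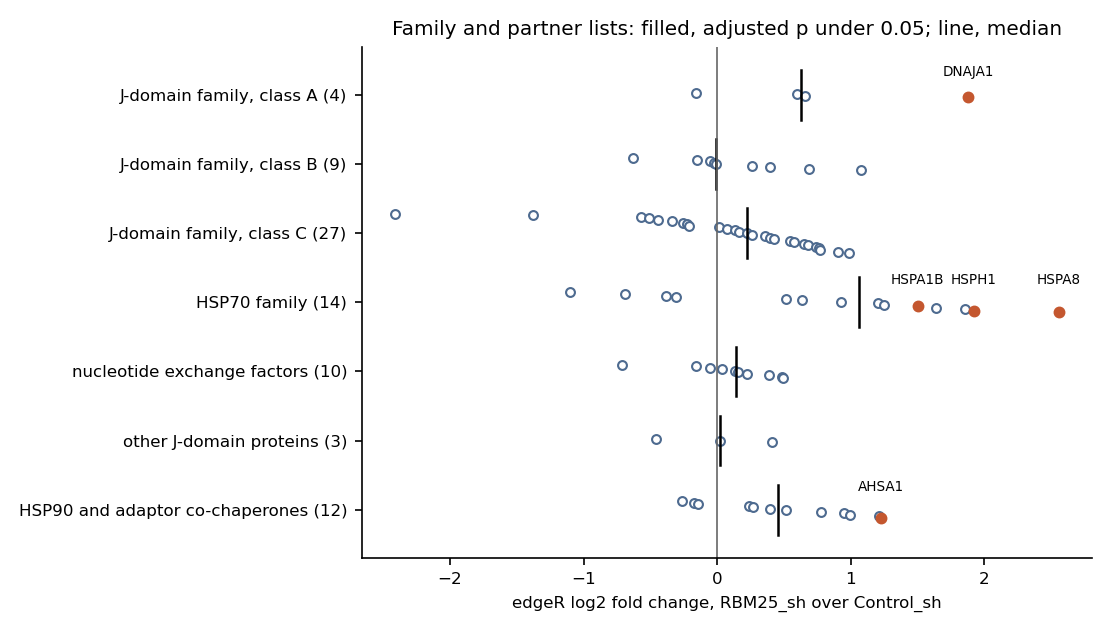
Log2 fold change of RBM25_sh over Control_sh from edgeR (horizontal axis) for every tested gene of the 3 J-domain classes and 4 partner lists (rows, number tested in brackets); filled points have an adjusted p under 0.05 and black lines are list medians. DNAJA1 is the filled point of the family, and HSPA8, HSPH1, HSPA1B and AHSA1 are those of the partner lists.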

How the data were processed

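The deposited files gave, for each library, whole-number read counts per gene and FPKM values from the authors. TopHat2 2.0.9, Bowtie2 2.0.6, Cufflinks 2.1.1 and Cuffdiff 2.1.1 are named in the submitters' processing notes. The counting program, its strand setting and the build were not given in the sources used here, but all listed gene positions equal those of GENCODE 29 (GRCh38). Of the 45 members, 31 overlap another listed gene, and only some of these pairs are described above. DNAJA4 and WDR61, DNAJC9 and FAM149B1, DNAJB11 and TBCCD1, and DNAJC30 and BUD23 are further pairs on opposite strands. Their values carry the same uncertainty. The deposited FPKM equal count divided by listed length and by 1 factor per library, and were used for levels between genes and in the limma alternatives.

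Counts were filtered (filterByExpr), scaled by TMM and tested with edgeR 4.0.16 (quasi-likelihood F test, group as the only term) over 16091 genes, with Benjamini-Hochberg adjustment over all of them and a threshold of 0.05. A standard error is the size of the log2 fold change over the root of F. The GC correction used GC content of the longest GENCODE 29 transcript and a robust loess trend per library. The scripts were tested on simulated data. DESeq2 1.42.0, limma 3.58.1 on log2 FPKM and on voom weights, other scalings and filters, a block on replicate number and leaving out each library were alternatives.

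Values were given per library for all class A members, the class B and C members that were called or had the smallest p, and members of the role lists by extremes; partners were given values when called or among the 3 next by p (HSPA5 was added later), and 1 gene chosen for a partner list is not reported here. Members, lists and alternatives, the GC correction included, were chosen with earlier results of these data known.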

Additional observations from a re-analysis of the deposited data

How the results depend on the processing

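Depth limits the members under about 3 CPM (DNAJC5G, DNAJC28), and 2 libraries a group leave 2 residual degrees of freedom. The count of genes called, 491, was 466 with DESeq2 size factors, 533 with library totals, 590 with a filter at 1 CPM and 374 with voom, but 1438 without a filter, 1085 with the DESeq2 Wald test, 268 and 215 with limma on log2(FPKM + 0.1) and log2(FPKM + 1), 0 with the latter without a filter (3676 at an unadjusted p under 0.05), 4486 with the GC offset, and 243 to 2497 with 1 library left out (2497 without Control_sh replicate 1, 1068 without Control_sh replicate 2, 243 without RBM25_sh replicate 1 and 365 without RBM25_sh replicate 2), where the lone library is assumed to vary like the others. A replicate block gave 5722, and with the GC offset 6283; same-numbered libraries deviated together (correlation 0.47 across genes, 0.71 across members), but the labels do not say that a number marks a shared culture or day, so whether numbers pair the libraries is not known and they were treated as unpaired.

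Members called higher, 1, were 2 without a filter and with DESeq2, and 0 with limma on FPKM without a filter. They were 13 with the replicate block, 13 with the GC offset and 14 with both. Members called lower, 0, were 2 without a filter, 1 with DESeq2, 3 with the replicate block, 5 with the GC offset and 5 with both. Except for limma, these settings also called more than 491 of all tested genes, as given above. With the GC offset the member shares were 32.5% higher and 12.5% lower, beside 12.8% and 15.1% of all tested genes. Shares by direction are not given for the other settings, so those counts are only descriptions. Both counts also moved with 1 library left out.

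RBM25 was -1.46 with limma on log2(FPKM + 1), above the threshold with the filter (adjusted p = 0.0572) and without it (adjusted p = 0.349), and -1.96 to -1.53 with 1 library left out. The median log2 fold change of members was 0.14 with totals, 0.14 with the GC offset, 0.16 with block and offset, and 0.12 to 0.33 with 1 library left out; for class A it was 0.52 with totals and 0.56 to 0.72 with 1 left out; for class B -0.12 with totals, 0.13 with the GC offset, 0.15 with both and 0.081 to 0.23 with 1 left out; for class C 0.12, 0.087, 0.091 and 0.098 to 0.32. With 1 library left out the sign of single genes turned for DNAJC10 (-0.483 to 0.046, above 0 without Control_sh replicate 1 and, at 0.020, without RBM25_sh replicate 2), DNAJC21 (-0.504 to 0.048, above 0 without Control_sh replicate 1) and, without Control_sh replicate 2, DNAJC3 (-0.070 to 0.587), DNAJA3 (-0.373 to 0.102) and DNAJB14 (-0.180 to 0.903). SEC63 (0.023) turned to -0.081 with library totals, -0.140 with the GC offset, -0.139 with the replicate block and GC offset, and -0.257 without Control_sh replicate 2 (-0.257 to 0.370 with 1 library left out). The cause was not tested.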

Other observations

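Apart from members, 25 listed genes carry a DNAJ name (pseudogenes, antisense and divergent transcripts), and 4 passed the filter. DNAJC27-AS1 had 19 and 43 counts in Control_sh and 8 and 10 in RBM25_sh (log2 fold change -1.61 ± 0.60, adjusted p = 0.166 by edgeR), while its sense partner DNAJC27 lay above both controls in both RBM25_sh libraries. The 1 of 2 genes named DNAJC9-AS1 that passed had 34 and 43 counts against 16 and 18 (-1.03 ± 0.48, adjusted p = 0.255 by edgeR), while DNAJC9 also lay above both controls. DNAJC3-DT had 18 and 31 counts against 21 and 48, and DNAJC19P5 had 26 and 20 against 13 and 11. None of the 4 was called.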
